A study of Homo sapiens with 118 samples.

Results

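Scriptaid was compared at its highest and its lowest concentration in HepaRG cells, a human liver cell line that differentiates into hepatocyte-like and biliary-like cells. The comparison holds the 3 libraries of C5 (94.5 µM) and the 3 libraries of C1 (4.94 µM), 6 of 118 libraries of the series, chosen by their dose labels, and all rows of the count table were used. The cells had been bought frozen in the differentiated state, plated, kept for a week, and then exposed to scriptaid for 72 h with fresh chemical each day in an induction medium. Lysates were read with TempO-Seq, which counts ligated probe pairs per transcript with a whole-transcriptome panel. Each of the 3 libraries of a group came from another batch of HepaRG cells, so adjusted p-values measure the spread between batches of 1 cell line. Solvent-treated wells are not analysed here. C1 therefore served as the reference, and whatever 4.94 µM already changed is outside the comparison.

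Histone deacetylases remove acetyl groups from lysines of histones and of other proteins, and their inhibitors raise histone acetylation and thereby change transcription in both directions. Scriptaid is a hydroxamic acid, a group that binds the zinc ion in the active site of these enzymes, whereas sirtuins use NAD instead of zinc. Differentiated HepaRG cells are used in liver toxicology since they keep plasma protein secretion, cytochrome P450 activity and bile acid handling, which depend on hepatic transcription factors such as HNF4A and the nuclear receptors NR1I2 (PXR) and NR1I3 (CAR).

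Total counts were 3211351, 4181109 and 3547058 at C1 and 2066335, 3123879 and 1785844 at C5. The ranges did not overlap, and the exact two-sided permutation p was 0.1, the smallest that 3 against 3 can give. With every library thinned to 1785844 counts, 3609 of the features below were called in place of 3811, and 3437 were shared. Libraries of the same group correlated at 0.957 to 0.964 at C1 and at 0.915 to 0.951 at C5. One library of the 15 in the scriptaid model, C4 of batch 3, stood apart (correlation with its group down to 0.809, 10223 features with at least 5 counts). It enters the comparison through the estimate of spread and the filter on low counts. Without it 13228 features were tested in place of 12790 and 5447 were called, among them all 3811. All 8 features of the hepatocyte markers had over 3 counts in every C1 library, and they summed to 33950 to 38920 CPM (counts per 1000000 of the scaled library) at C1. The biliary and stromal sets, of other probes, summed to 88.4 to 97.8 and 164 to 199 CPM, with EPCAM and COL1A2 at 0 counts in all 6 libraries. PTPRC and HBB, markers of blood cells, had 0 counts, and CD68 lay between 16.7 and 39.5 CPM.

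The contrast between C5 and C1 was wide. Of 12790 features tested, 1633 rose (12.8%) and 2178 fell (17.0%), or 29.8% in all, by edgeR's quasi-likelihood test (at least 1.5-fold, adjusted p below 0.05). The rising features named 1555 genes and the falling features 2013. Large changes were mostly losses: 1097 features fell at least 4-fold and 450 rose as much, and at 16-fold the numbers were 328 and 98. At most 3 counts in every C1 library were seen for 81 rising features, and 235 falling features were that low in every C5 library. In 3777 of the 3811 called features the C1 and C5 libraries did not overlap. Features so separated pass the test more easily, so this count describes the calls and adds no support. The median change of all features tested was 0.01 on the log2 scale. The number of calls grew with concentration: C2 against C1 gave 0 calls by edgeR (164 features with an unadjusted p under 0.05), C3 gave 59 rising and 112 falling, and C4 282 and 341. The C4 counts include the library of batch 3 that stood apart and were not fitted without it, so the size of the step from C4 to C5 is uncertain. The C5 count changed when a batch was left out at every concentration. Without batch 1 it was 1872 and without batch 2 it was 1516, of which 1841 and 1501 were among the 3811, and without batch 3 it was 4638. With single C1 or C5 libraries left out it was 2835 to 3210. The runs without batch 1 or batch 2 kept the C4 library of batch 3 in the estimate of spread, and its part in their lower counts was not tested. In a lysate, fewer cells of a type and less RNA per cell cannot be told apart.

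Among features of at least 50 CPM at C5, the rises with the largest fold included genes of several secretory and metabolic roles. DHRS2_15289, a probe for a short-chain dehydrogenase, had 4.16, 1.23 and 3.57 CPM at C1 and 322, 386 and 144 CPM at C5. Its fitted log2 change was 6.59 (SE 0.68, adjusted p = 1.75e-06). The second DHRS2 probe rose from 0.320, 3.69 and 2.68 to 127, 106 and 44.8 CPM, a log2 change of 5.30 (SE 0.57, adjusted p = 2.58e-06). Both probes thus rose in all 3 batches, with the smallest C5 value in batch 3. SERPINB2_91095, the plasminogen activator inhibitor PAI-2, had 2.56, 4.67 and 2.98 CPM at C1 and 217, 266 and 71.8 CPM at C5, a log2 change of 5.73 (SE 0.59, adjusted p = 1.64e-06). FABP4_21799, the fatty acid-binding protein best known from adipocytes, rose from 6.07, 3.93 and 3.87 to 303.2, 212 and 119 CPM, by 5.51 on the log2 scale (SE 0.48, adjusted p = 4.35e-07). The C1 and C5 libraries of these genes lay far apart. CPA4_20086, a secreted carboxypeptidase, had 22.1, 11.3 and 9.82 CPM at C1 and 502, 632 and 820.1 CPM at C5, a log2 change of 5.50 (SE 0.42, adjusted p = 1.46e-07). ARG2_19025, the mitochondrial arginase, had 5.11, 5.16 and 3.87 and then 86.4, 127 and 167 CPM, a log2 change of 4.73 (SE 0.40, adjusted p = 3.36e-07). It moved against ARG1, the urea cycle arginase described below. C15orf48_21127 and SCG2_17075, which encodes a secretory granule protein of neuroendocrine cells, changed by 5.03 (SE 0.60) and 4.88 (SE 0.92). SCG2 varied most between the C5 libraries, at 28.5, 31.2 and 127 CPM, and its log2 change was 3.83 without that of batch 3 and 5.48 without the C1 library of batch 3. The change of DHRS2_15289 was 5.89 without batch 2, and that of DHRS2_1857 was 4.52 without batch 1.

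Features that were barely counted at C1 also appeared. TNFAIP6_18251, a hyaluronan-binding protein of inflamed tissue, had 4 counts in the 3 C1 libraries together and 284 at C5, a ratio per scaled library of 101-fold (95% counting interval 38.98 to 373). For DACT3_90228, a regulator of Wnt signalling, the counts were 2 and 266 and the ratio 189-fold (95% counting interval 51.8 to 1569). SYT11_25959, a synaptotagmin, went from 2 to 220 counts, a ratio of 156-fold (95% counting interval 42.8 to 1299), and MORN5_19877 from 5 to 160 counts, a ratio of 45.5-fold (95% counting interval 19.1 to 142). All 4 were called, with edgeR adjusted p-values of 0.000241, 3.72e-06, 3.21e-05 and 0.000125. Such intervals hold counting error alone: they pool the reads of the 3 libraries of a group and leave out the spread between batches. Libraries of a group differed by more than counting error (chi-square per degree of freedom 4.40 to 12.0 between pairs), so the intervals are too narrow. Amplified reads of 1 molecule also could not be told from reads of several.

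The deepest losses at a measurable level were mostly those of liver enzymes. CYP2C8_15146, a cytochrome P450 of drug oxidation, had 188, 195 and 297 CPM at C1 and 1.81, 1.21 and 0.520 CPM at C5, and fell by 7.50 on the log2 scale (SE 0.90, adjusted p = 7.33e-06). CYP3A4_88797, for the P450 that oxidises the widest range of drugs, had 412, 336 and 292 CPM at C1 and 5.88, 0.910 and 4.16 CPM at C5, a fall by 6.65 (SE 0.77, adjusted p = 5e-06). At C5 no library held above 6 CPM of either probe, and at C1 none held below 180. GLYAT_91279 (glycine conjugation of acyl groups), HAO2_89824 (a peroxisomal hydroxy acid oxidase), CYP3A43_28477, ADH6_23862 (an alcohol dehydrogenase) and SERPIND1_19362 (heparin cofactor II) changed by -6.63, -6.58, -6.54, -6.46 and -6.40, with SEs from 0.53 to 0.85. The size of these losses depended on single libraries: without batch 3 the change of CYP3A43 was -7.51 and that of ADH6 -7.11, and without batch 1 that of CYP3A43 was -5.80. Without the C5 library of batch 1, CYP3A4_88797 was at -7.25 and SERPIND1 at -6.99, and without that of batch 3 GLYAT was at -7.49. Other liver genes were reduced to a few counts. ARG1_33578 went from 1085 counts at C1 to 6 at C5, a ratio of 127-fold (95% counting interval 58.3 to 348). ASGR1_28300, a subunit of the receptor that clears desialylated glycoproteins, went from 1032 to 7 counts and fell 104-fold (95% counting interval 50.2 to 259). ADH4_25100 and SLC22A9_89388, a liver anion transporter, fell 115-fold (95% counting interval 52.6 to 314) and 165-fold (95% counting interval 64.1 to 606).

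**Figure D1:**
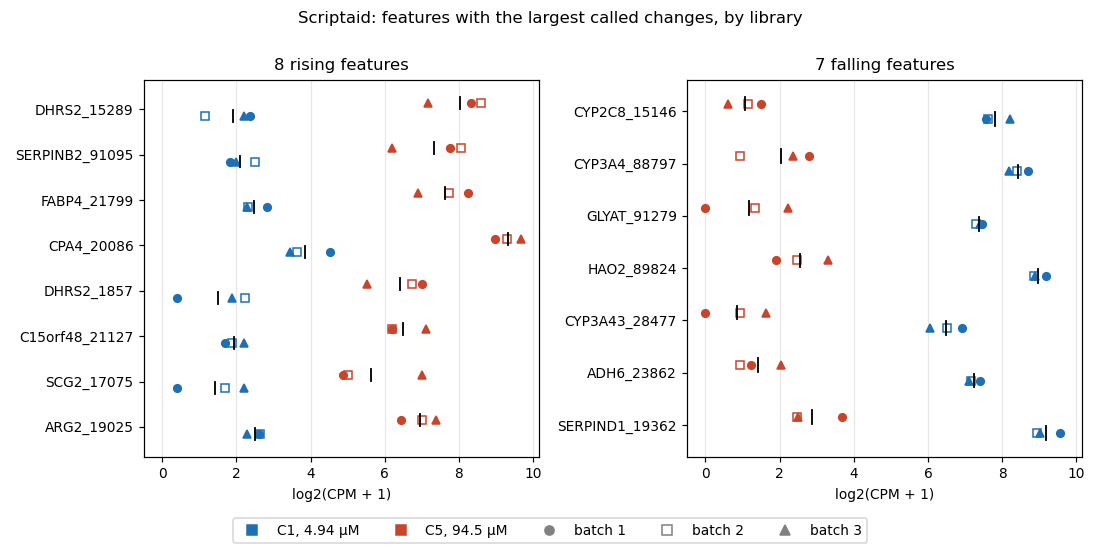
Level of 8 rising and 7 falling features with the largest fitted change, as log2(CPM + 1) in each C1 (blue) and C5 (red) library, with the marker shape giving the HepaRG batch and the black tick the group mean. In all 15 the C1 and C5 libraries are separate, and the spread within a group is widest for low values such as CYP3A43_28477 at C5.

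Most tested features of the plasma protein, drug metabolism, bile acid, urea cycle, gluconeogenesis and hepatic factor lists fell. Those of lipid handling moved both ways, and 19 of 24 in cholesterol synthesis were not called. A feature that passed the filter on low counts only through the group in which it was high had to differ, so the counts and medians of lists are given as descriptions. The counts are to be read beside the 12.8% of all tested features that rose and the 17.0% that fell. All 26 tested features of a list of proteins that hepatocytes secrete into plasma fell and 0 rose, with a median log2 change of -3.01 against 0.01 over all features tested. ALB_217, serum albumin, had 21282, 20078 and 18446 CPM at C1 and 3069, 3283 and 2392 CPM at C5, and fell by 2.77 (SE 0.39, adjusted p = 3.32e-05). FGA_14673, the fibrinogen alpha chain, went from 6381, 6348 and 8464 to 360.3, 507 and 214 CPM and fell by 4.29 (SE 0.44, adjusted p = 1.5e-06). HP_3085, haptoglobin, went from 10639, 8453 and 10382 to 773, 711 and 417 CPM and fell by 3.95 (SE 0.41, adjusted p = 1.83e-06). All C5 values of these 3 lay below all C1 values. F9_2297 (coagulation factor IX), ITIH1_16511 (an inhibitor subunit bound to hyaluronan) and AHSG_16222 (fetuin A) fell as well, the last from 453 counts to 1, a ratio of 319-fold (95% counting interval 56.9 to 12620). The changes of F9 and ITIH1 were -4.50 and -4.08, or -5.31 and -4.75 without batch 2. The summed level of the list was 74888 to 85807 CPM at C1 and 8524 to 13572 at C5. Beside this fall, the summed markers of biliary or progenitor cells were 99.4 to 164 CPM at C5 and those of stromal cells 152 to 181 CPM, and the part of cell numbers in the fall was not tested.

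Among drug-metabolising enzymes 27 of 34 tested features (40 measured) fell and 1, POR_5283, rose, with a median of -3.50. Beyond CYP2C8 and CYP3A4, the sulfotransferase SULT2A1_24513 went from 534 counts to 1, a ratio of 376-fold (95% counting interval 67.2 to 14870). CYP4A11_89302, a fatty acid hydroxylase, had 0 counts at C5 and was at least 11.6-fold lower. The losses of the carboxylesterase CES1_1259 and the epoxide hydrolase EPHX1_17800 were smaller, from 2608, 2664 and 2962 to 1142, 1076 and 938 CPM and from 1989.6, 1893 and 2059 to 1427, 1132 and 679 CPM. Their log2 changes were -1.38 (SE 0.41, adjusted p = 0.0163) and -0.88 (SE 0.28, adjusted p = 0.0225), and both calls were lost without batch 1 or batch 2. POR_5283, the electron donor of the cytochromes P450, changed by 0.79 (SE 0.27, adjusted p = 0.0342), and was not called without batch 1 or batch 2. A second POR probe was not called.

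Bile acid synthesis and transport had 16 falling and 0 rising features of 20 tested (25 measured), with a median of -5.00, or -2.64 with the 9 members at the floor set at their bound of 3 counts per library. BAAT_614, which conjugates bile acids to glycine or taurine, had 1409.8, 1273 and 1452 CPM at C1 and 13.6, 15.2 and 21.9 CPM at C5, and fell by 6.36 (SE 0.51, adjusted p = 1.86e-07). ABCC2_22, a canalicular export pump, went from 237, 225 and 256 to 14.5, 10.9 and 3.12 CPM and fell by 4.62 (SE 0.43, adjusted p = 7.08e-07). CYP8B1_13372, the sterol 12-alpha-hydroxylase, and ABCB11_82408, the bile salt export pump, had 0 counts at C5, at least 12.9-fold and at least 6.18-fold lower. SLC22A7_88372, an anion transporter, went from 301 to 2 counts, a ratio of 106-fold (95% counting interval 29.1 to 878). Synthesis, conjugation and export thus held falling members alike.

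In the urea cycle and amino acid breakdown 11 of 18 tested features (20 measured) fell and 0 rose, with a median of -3.95 (-2.85 with floor members at their bound). AGXT_26064, a peroxisomal aminotransferase, had 642, 481 and 643 CPM at C1 and 11.8, 11.5 and 14.6 CPM at C5 and fell by 5.55 (SE 0.54, adjusted p = 1.1e-06). TDO2_18429, which opens the tryptophan ring, went from 332, 276 and 339 to 29.9, 35.2 and 2.60 CPM and fell by 3.77 (SE 0.52, adjusted p = 2.89e-05). OTC_90834, the ornithine transcarbamylase of the urea cycle, had 0 counts at C5 and was at least 7.64-fold lower, and PRODH2_89665 kept 1 of 90 counts and lost its call without batch 2. The argininosuccinate enzymes ASS1 and ASL were not called, with log2 changes of -0.91 and -0.33.

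The carbohydrate genes split by the direction of their pathway. In the list of gluconeogenesis and glycogen 8 of 10 tested features (12 measured) fell and 0 rose (median -3.00, and 6 and 5 calls without batch 1 or 2). G6PC_2546, the glucose-6-phosphatase that releases glucose from liver, went from 609 to 3 counts, a ratio of 143-fold (95% counting interval 48.7 to 695). GYS2_14007, the liver glycogen synthase, had 0 counts at C5 and was at least 29.1-fold lower, and SLC2A2_6439, the liver glucose transporter, fell from 67.8, 70.3 and 78.6 to 1.81, 11.8 and 3.64 CPM. Its log2 change was -3.55 (SE 0.51, adjusted p = 4.54e-05), or -4.74 without batch 2. PPARGC1A_12225, a coactivator of the gluconeogenic genes, went from 109, 114 and 92.9 to 80.6, 70.98 and 46.3 CPM, a log2 change of -0.67 (SE 0.25, adjusted p = 0.0466), and its call was lost without any 1 of the batches. In the glycolysis list 6 of 15 tested features (18 measured) rose and 0 fell, with a median of 1.07. The medians within batches 1, 2 and 3 were 0.43, 0.80 and 1.57, and the fitted median was 0.45 without batch 3. The counts of rising members were 5 and 3 without batch 1 or 2. ALDOC_233, the aldolase of the brain, went from 7.35, 12.5 and 7.74 to 84.2, 93.1 and 158 CPM and rose by 3.58 (SE 0.43, adjusted p = 6.68e-06). ALDOA_232, the form of muscle and most other cells, went from 647, 846 and 724 to 2035, 2427 and 3862 CPM and rose by 1.91 (SE 0.30, adjusted p = 0.000125). PGK1_92458 (phosphoglycerate kinase) and LDHA_3766 (lactate dehydrogenase A) rose by 1.87 (SE 0.38) and 1.45 (SE 0.37), and the highest C5 value of both was that of batch 3. LDHA lost its call without batch 2 (adjusted p = 0.0726). PKM_92379, pyruvate kinase, had a log2 change of 0.65 (SE 0.24, adjusted p = 0.0462), and its adjusted p reached 0.352 under the alternatives.

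Genes of lipid handling moved both ways, and few of cholesterol synthesis were called. Of 18 tested features of fatty acid oxidation and lipid handling, 6 rose and 5 fell (33.3% and 27.8%), with a median of -0.20. The rising count was 3 without batch 1 or 2. FABP1_11582, the liver fatty acid-binding protein, went from 409, 283 and 373 to 5.43, 1.52 and 6.76 CPM and fell by 6.35 (SE 0.75, adjusted p = 5.78e-06). FABP1 thus moved against FABP4. PDK4_28868, a kinase that restrains pyruvate dehydrogenase, went from 80.9, 92.9 and 102 to 793, 585 and 271 CPM and rose by 2.58 (SE 0.40, adjusted p = 9.02e-05). ACSL1_75 went from 418, 334 and 255 to 691, 619 and 315 CPM and was not called (adjusted p = 0.168). Of 24 tested features of cholesterol synthesis, 2 rose and 3 fell (8.33% rising and 12.5% falling), and their median was -0.04. Both shares lay below those of all features. The falling members were CYP51A1_92320 (-1.65), FDPS_92913 (-1.57) and MSMO1_4315 (-0.86), and the rising ones were STARD4_22492 (1.21) and IDI1_92378 (0.72). None of the rising members was called without batch 1 or batch 2, and MSMO1 lost its call under 10 of 16 alternatives.

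Most features of the hepatic transcription factors fell. Of 22 tested features (24 measured) of the list of hepatic factors, 15 fell (10 without batch 2) and 0 rose, with a median of -2.7, or -2.2 with floor members at their bound. HNF4A_28261, the receptor on which much of hepatocyte expression depends, went from 21.4, 13.03 and 13.1 to 1.36, 0.607 and 0.520 CPM and fell by 4.21 (SE 0.89, adjusted p = 0.00148). NR1I2_12051, the pregnane X receptor that induces CYP3A4, went from 17.9, 19.9 and 16.97 to 0.453, 0 and 0.520 CPM. In counts this was 194 against 2, a ratio of 68.3-fold (95% counting interval 18.6 to 568). NR1I3_90298, the constitutive androstane receptor, went from 48.9, 29.5 and 30.4 to 0.905, 1.82 and 0 CPM and fell by 5.08 (SE 0.71, adjusted p = 3.43e-05), and its change was -6.24 without batch 2. The second NR1I3 probe lost its call there. PROX1_87940, a homeobox factor of liver, went from 180.0, 129 and 105 to 18.1, 26.4 and 23.4 CPM and fell by 2.60 (SE 0.33, adjusted p = 1.14e-05). CEBPB_10745 went from 147, 153 and 147 to 133, 126 and 64.5 CPM and was not called (adjusted p = 0.226).

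The biliary, progenitor and stromal lists did not move as 1 group. Of 8 tested features of the biliary and progenitor list 1 rose and 3 fell (12.5% and 37.5%), and 9 more of its features were too low to test. SOX9_22075, a factor of biliary and progenitor cells, went from 23.3, 22.9 and 30.7 to 64.3, 52.5 and 42.1 CPM, a log2 change of 1.05 (SE 0.32, adjusted p = 0.0185), and its call was lost without batch 1 or batch 2. AFP_158 (alpha-fetoprotein), MMP7_14781 and ITGB4_15031 had changes of -2.65, -2.06 and -1.81, of which ITGB4 lost its call without batch 2 and AFP was at -3.38 there. KRT19_10816 had 35.5, 38.8 and 30.1 CPM at C1 and 57.9, 43.1 and 33.3 CPM at C5 and was not called (adjusted p = 0.577). In the stromal list 8 of 20 tested features fell and 1 rose (40% and 5%), with a median of -0.73, and the falling count was 3 without batch 2. FN1_13666, fibronectin, went from 1505, 1427 and 1378 to 654, 519.6 and 454 CPM, a log2 change of -1.40 (SE 0.26, adjusted p = 0.000496). At C1 it lay above the 164 to 199 CPM of the summed stromal markers, and which cells it came from was not tested. COL1A1_1466, a collagen chain, rose from 4.80, 0.737 and 4.47 to 18.1, 17.3 and 46.8 CPM, with a log2 change of 3.04 (SE 0.64, adjusted p = 0.00146), or 2.42 without the C5 library of batch 3. ACTA2_14836, smooth muscle actin, changed by -2.79 (SE 0.49), or by -3.91 without batch 2. COL3A1_28516 and POSTN_20868 lost their calls without batch 1 or batch 2.

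**Figure D2:**
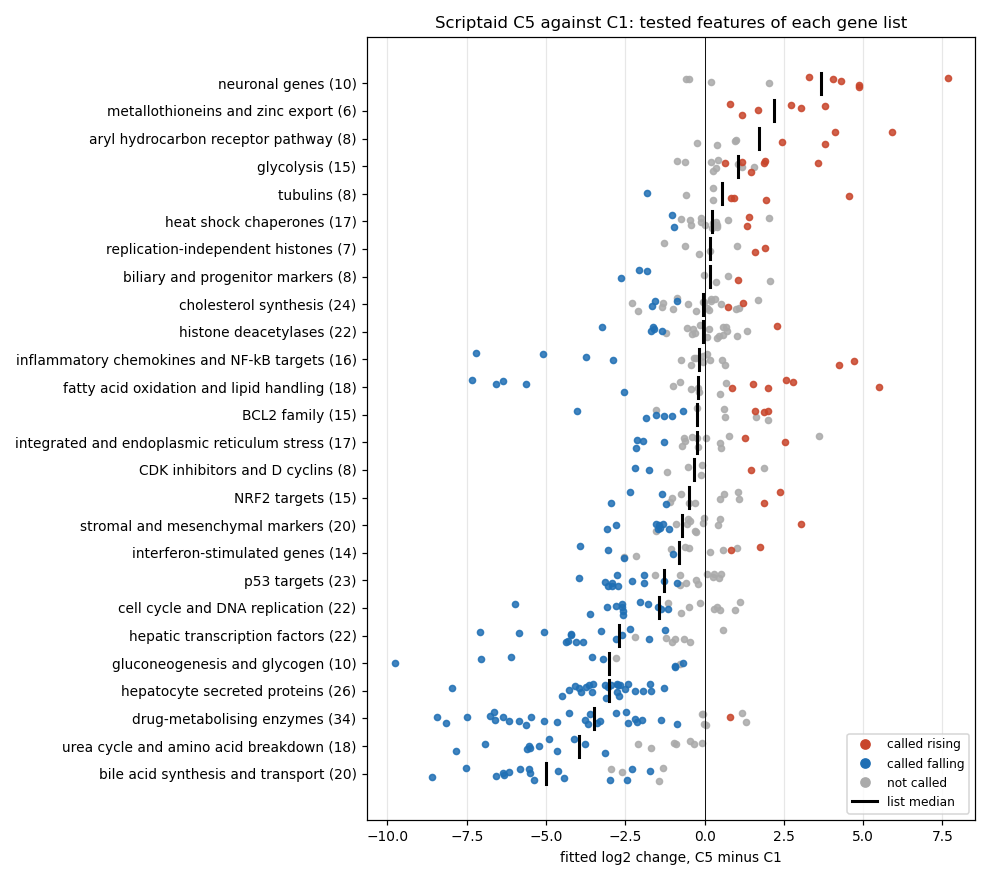
Fitted log2 change, C5 minus C1, of every tested feature of the 26 gene lists, ordered by list median (black bar), with the number of tested features in brackets and colours for the call. The lists of liver functions lie at the bottom with medians from -5.00 to -2.7, and neuronal genes, metallothioneins and the aryl hydrocarbon receptor pathway at the top with medians of 3.68, 2.2 and 1.72. The order at the top depends on the filter on low counts: without it these medians were 2.04, 1.59 and 2.23.

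Of the deacetylase genes themselves, HDAC3 rose and HDAC6 and HDAC7 fell. HDAC3_22727, the catalytic subunit of the NCoR and SMRT corepressor complexes, had 52.1, 61.4 and 63.7 CPM at C1 and 262, 244 and 361 CPM at C5 and rose by 2.29 (SE 0.30, adjusted p = 1.71e-05). At C4 its values were 66.8, 67.6 and 31.4 CPM, so all C4 values lay below those of C5. HDAC6, the cytoplasmic tubulin deacetylase, fell in all 4 of its probes. HDAC6_90749 went from 702, 734 and 818 to 230.4, 214 and 304 CPM, a log2 change of -1.59 (SE 0.35, adjusted p = 0.00191), and the other 3 probes changed by -1.68, -1.62 and -1.35. None of the 4 probes passed the adjusted p without batch 2. HDAC7_22460, a class IIa member, had 44 counts at C1 and 3 at C5, a ratio of 10.3-fold (95% counting interval 3.31 to 51.96), and lost its call without batch 2, without batch 3 and without the C1 library of batch 3 or the C5 library of batch 2 or 3. HDAC1_2897 went from 23.02, 27.03 and 22.03 to 21.7, 24.9 and 32.8 CPM (log2 change 0.13, SE 0.38), and HDAC2_2900 from 269.8, 274 and 320.0 to 442, 454 and 401 CPM (0.59, SE 0.35). Neither was called, although the HDAC2 libraries did not overlap and HDAC2 was called without batch 3. HDAC4_25787, HDAC5_91427, HDAC8_22025, HDAC9_27305, HDAC9_27304, HDAC10_22403 and HDAC11_13925 had changes from -0.56 to 1.35, none of them called. HDAC5_90747 and HDAC9_14516 had 0 counts in these 6 libraries. Among the sirtuins, SIRT1_21308 changed by -1.22 (SE 0.55, adjusted p = 0.102), and the tested probes of SIRT2, SIRT3, SIRT5, SIRT6 and SIRT7 changed by -0.37 to 0.72 with no call. SIRT4_11681 was too low to test. Over the 22 tested features of the list 1 rose and 5 fell (4.55% rising and 22.7% falling), and the median was -0.05.

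Of 7 tested features (10 measured) of histone genes expressed outside S phase, 2 rose and 0 fell (28.6% and 0%). H1F0_22378, the linker histone H1.0 of differentiated cells, went from 13.7, 7.62 and 8.33 to 30.8, 54.9 and 25.5 CPM, a log2 change of 1.91 (SE 0.50, adjusted p = 0.00716), and lost its call without batch 2. H2AFV_27300, an H2A.Z variant, went from 33.2, 31.7 and 25.3 to 81.5, 109 and 78.6 CPM, with a log2 change of 1.57 (SE 0.29, adjusted p = 0.000516). H2AFY_13657 and H2AFX_2861 changed by 0.18 and -0.60 and were not called.

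Proliferation genes fell. Of 22 tested features of the list of cell cycle and DNA replication 13 fell and 0 rose, with a median of -1.43. TYMS_21327, thymidylate synthase, had 714, 806 and 878 CPM at C1 and 54.8, 55.5 and 84.3 CPM at C5, and fell by 3.63 (SE 0.45, adjusted p = 9.62e-06). MKI67_28355, the proliferation marker Ki-67, went from 184, 214 and 257 to 41.2, 31.2 and 3.64 CPM and fell by 3.09 (SE 0.52, adjusted p = 0.000235). Its change was -3.72 without batch 1 and -2.48 without batch 3. The mitotic kinase AURKA_586 went from 217 to 2 counts, a ratio of 76.3-fold (95% counting interval 20.9 to 634), and AURKB_587 changed by -2.79 (SE 0.43), or by -3.48 without the C5 library of batch 2. The replicative helicase did not follow as a set. MCM3_4072 went from 177, 196 and 268 to 153, 180.5 and 124 CPM and was not called (adjusted p = 0.316), MCM2, MCM4, MCM5 and MCM6 were not called either, and MCM7_4079 fell by 1.39. Among 8 tested features of CDK inhibitors and D cyclins, CCND3_91346 rose by 1.47 and CDKN2C_21620 and CCND1_1062 changed by -1.75 and -2.19, and all 3 calls were lost without batch 1 or batch 2. CDKN1B_1222 had 61.4, 36.4 and 41.1 CPM and 41.2, 51.9 and 39.03 CPM and was not called, and the probe of CDKN1A was too low to test.

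Targets of p53 fell without exception among the called members. Of 23 tested features 12 fell and 0 rose, with a median of -1.29. MDM2_23384, the ubiquitin ligase that p53 induces and that degrades it, had 4601, 4754 and 4239 CPM at C1 and 571, 575 and 484 CPM at C5, and fell by 3.06 (SE 0.27, adjusted p = 4.28e-07). MDM2_27497, a further probe, went from 231, 194 and 174 to 17.2, 14.9 and 6.24 CPM and fell by 3.95 (SE 0.40, adjusted p = 1.51e-06). TP53I3_24981, an oxidoreductase, went from 247, 222 and 185 to 36.7, 20.02 and 30.2 CPM and fell by 2.92 (SE 0.36, adjusted p = 9.2e-06). The C5 libraries of these probes lay below all C1 libraries. TP53I3_27999 changed by -3.12, or by -4.71 without batch 2 and -4.83 without the C5 library of batch 2 alone. RRM2B_13340, the p53-inducible ribonucleotide reductase subunit, changed less, by -0.87, and lost its call without batch 1 or batch 2.

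The BCL2 family, which governs mitochondrial apoptosis, held 3 rising and 6 falling features of 15 tested (20% and 40%, 25 measured). The falling count was 2 without batch 2. The risers were probes of BIM (BCL2L11) and BMF, both of which carry only the BH3 motif and promote death. BMF_16921 went from 16.6, 9.58 and 11.9 to 60.2, 43.1 and 48.9 CPM and rose by 2.00 (SE 0.41, adjusted p = 0.00112), and BCL2L11_26447 from 21.4, 27.8 and 18.2 to 94.6, 109 and 41.6 CPM, by 1.86 (SE 0.42, adjusted p = 0.00265). The fallers included the effector BAX_28222, from 659, 626 and 710.2 to 244, 221 and 225 CPM (-1.53, SE 0.22, adjusted p = 4.56e-05), and the BH3-only protein BID_696, from 23.98, 20.4 and 19.6 to 1.36, 2.12 and 0 CPM (-4.02, SE 0.58, adjusted p = 4.72e-05). BCL2L1_21647, which encodes BCL-XL, went from 680.3, 789.6 and 933 to 366, 308 and 310.1 CPM (-1.29, SE 0.37, adjusted p = 0.0128). The falling members thus held genes that promote death (BAX, BID and BOK_25776 at -1.02) and genes that oppose it (BCL2L1 and MCL1_20177 at -0.69). BCL2L11_26447 lost its call without batch 1 or batch 2, BCL2L1 and BID_26898 lost theirs without batch 2, and the change of BID_696 was -4.85 without batch 2.

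Genes of neurons were mostly not measurable. Of 36 probes of the neuronal list 26 were too low to test, so the 10 tested were in part those that C5 lifted over the filter and their 6 rises are given as values only. STX1A_6864, a syntaxin of synaptic vesicle release, went from 1.28, 1.72 and 0 to 16.7, 33.4 and 43.7 CPM (4.88, SE 0.79, adjusted p = 0.000143), with 4.01 without batch 3. ENO2_13140, the neuronal enolase, went from 0, 2.703 and 0.595 to 7.24, 18.8 and 45.8 CPM (4.31, SE 1.03, adjusted p = 0.00573), with a fitted change of 3.16 without batch 3 and 6.23 without batch 2. NEFL_27577, a neurofilament, had 0 counts at C1 and 58 at C5, at least 10.1-fold higher. In NEFL, ENO2 and SCG2 the C5 library of batch 3 was the highest. Of 8 tested tubulin features (17 measured) 4 rose and 1 fell. TUBA1A_12436 went from 4 to 75 counts, a ratio of 26.7-fold (95% counting interval 9.99 to 100.3), and TUBA1A_7398 and TUBB2A_14065 rose by 1.95 and 0.94. TUBA1B_7399 fell by 1.81 (SE 0.30, adjusted p = 0.000193). TUBG1_28348 rose by 0.83. Of the 4 rising probes 1 was called without batch 1 and 0 without batch 2 (edgeR adjusted p of TUBA1A_12436 there 0.0531).

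All 6 tested features of metallothioneins and zinc export (12 measured) rose, with a median of 2.2, and 2 of them were called without batch 1 or batch 2. Metallothioneins bind zinc and copper through cysteines, and zinc induces them through the factor MTF1. MT2A_4334 had 165, 122 and 68.5 CPM at C1 and 1000.2, 1246 and 679 CPM at C5, and rose by 3.04 (SE 0.45, adjusted p = 5.76e-05). MT1M_28215 went from 26.2, 26.8 and 21.7 to 102, 97.4 and 37.99 CPM and rose by 1.67 (SE 0.38, adjusted p = 0.0026), and MT1A_4325 from 2.24, 1.23 and 0.595 to 12.7, 13.95 and 30.7 CPM, by 3.78 (SE 0.70, adjusted p = 0.000541). These 3 probes had no overlap between C1 and C5. MT1X_4333 and SLC30A1_20617, the zinc exporter, had changes of 2.73 (SE 0.79, adjusted p = 0.0137) and 0.79 (SE 0.27, adjusted p = 0.036), and the SLC30A1 libraries overlapped. MT1X was at 3.39 without the C1 library of batch 2. MT1M, MT1X and SLC30A1 lost their calls without batch 1 or batch 2, and MT1A was at 2.93 without batch 3 and 4.49 without batch 1. The MT2A promoter (RefSeq GRCh38.p14, chr16:56608334-56608633, plus strand, 250 bases before to 50 after the start) is shown because it holds 8 matches to the core of the metal response element, TGCACNC or TGCGCNC on either strand, here in capitals. A match is a description of letters and not a measured site.
MT2A: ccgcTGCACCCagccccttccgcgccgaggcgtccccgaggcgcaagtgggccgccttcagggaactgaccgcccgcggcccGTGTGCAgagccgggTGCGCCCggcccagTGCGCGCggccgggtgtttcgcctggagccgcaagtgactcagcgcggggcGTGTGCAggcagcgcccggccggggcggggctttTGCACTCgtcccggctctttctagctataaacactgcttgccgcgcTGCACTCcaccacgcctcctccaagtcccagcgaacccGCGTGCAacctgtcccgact

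Other stress programmes gave small counts in both directions. Of 17 tested heat shock features 2 rose and 2 fell (11.8% rising and 11.8% falling), shares below those of all features. HSPA1B_3136, an inducible HSP70, went from 34.2, 27.8 and 18.2 to 76.9, 74.9 and 60.9 CPM (1.41, SE 0.42, adjusted p = 0.0171), and HSPB1_92509, HSP27, from 629.8, 683 and 649 to 290.1, 344 and 322 CPM (-1.04, SE 0.22, adjusted p = 0.00175). HSPA8_92550, the constitutive HSC70, changed by -0.13 and was not called. DNAJA1_1891 and HSPB8_15039 were the other members called, at 1.33 and -0.97, and without batch 2 none of the 4 was called. Of 17 tested features of the integrated and endoplasmic reticulum stress response 2 rose and 4 fell (11.8% rising and 23.5% falling). The shares of all features were 12.8% and 17.0%. TRIB3_7337 went from 168, 181 and 201 to 68.8, 91.9 and 64.00 CPM (-1.29, SE 0.26, adjusted p = 0.0012), and HERPUD1_2924, ATF5_501 and XBP1_7759 changed by -1.94, -2.16 and -2.14. ATF3_499 changed by 2.53, with 1.26 without batch 3 and 3.68 without batch 1, and ASNS_12040, asparagine synthetase, rose by 1.26. Without batch 1 the calls of ATF5 and XBP1 were lost, and without batch 2 those of HERPUD1, XBP1 and ATF3. ATF3 also lost its call without batch 3 and without single libraries of batch 2 or 3 (edgeR adjusted p up to 0.271).

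Targets of NRF2, the factor of the oxidant response, split within 1 enzyme. Glutamate-cysteine ligase makes the first product of glutathione synthesis from a catalytic and a modifier subunit. The catalytic GCLC_22866 went from 114, 134 and 113 to 649, 454 and 219 CPM and rose by 1.87 (SE 0.31, adjusted p = 0.000183). The modifier GCLM_2615 went from 955, 969 and 983 to 489.7, 393 and 362 CPM and fell by 1.22 (SE 0.22, adjusted p = 0.000472), and its adjusted p was 0.0579 without batch 2. The C1 and C5 libraries of both subunits were separate. SRXN1_88916, sulfiredoxin, went from 149, 147 and 133 to 868, 908 and 450.1 CPM and rose by 2.38 (SE 0.27, adjusted p = 4.62e-06). AKR1B10_19908, an aldo-keto reductase, went from 474, 532 and 507 to 98.7, 72.8 and 24.98 CPM and fell by 2.94 (SE 0.40, adjusted p = 2.89e-05). OSGIN1_4849 fell by 2.34 (SE 0.39, adjusted p = 0.000194). Over 15 tested features 2 rose and 4 fell (13.3% rising and 26.7% falling, beside 12.8% and 17.0% of all features). Of the falls 2 were called without batch 2.

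The aryl hydrocarbon receptor binds planar ligands, pairs with ARNT and activates genes that hold the core GCGTG. Of 8 tested features (10 measured) 4 rose and 0 fell, with a median of 1.72. CYP1A1_10775, the classical target, had 20.8, 21.9 and 21.1 CPM at C1 and 432, 370.1 and 76.5 CPM at C5, and rose by 3.78 (SE 0.67, adjusted p = 0.000363). CYP1A1_1698 went from 0.639, 0.983 and 0.595 to 76.03, 54.00 and 11.97 CPM (5.90, SE 0.90, adjusted p = 8.52e-05), and CYP1B1_17315, the related P450 of tissues outside the liver, from 7.67, 3.69 and 7.14 to 143, 149 and 26.02 CPM (4.11, SE 0.72, adjusted p = 0.000298). In all 3 probes batch 3 was lowest at C5 while still above every C1 library. TIPARP_7116, a mono-ADP-ribosyltransferase that the receptor induces, went from 78.6, 88.97 and 85.7 to 536, 552 and 292 CPM and rose by 2.45 (SE 0.29, adjusted p = 5.39e-06). CYP1A2_1699 and CYP1A2_82402 were not called (0.38 and 0.95), nor were the receptor AHR_23752 (1.0) and ARNT_14705 (-0.23). All 4 rising features were called without each batch in turn. The fitted change of CYP1A1_1698 was 5.29 without batch 1, and that of CYP1B1 3.50 without batch 2 and 4.71 without batch 3. The RefSeq promoters of 2 rising genes are shown with GCGTG, or its reverse complement CACGC, in capitals (GRCh38.p14). These letters were in 50.0% of the promoters of all tested genes, and a match is not a measured site. CYP1A1 lies at chr15:74725479-74725778, minus strand, with 1 match, and TIPARP at chr3:156674340-156674639, plus strand, with 2 matches.
CYP1A1: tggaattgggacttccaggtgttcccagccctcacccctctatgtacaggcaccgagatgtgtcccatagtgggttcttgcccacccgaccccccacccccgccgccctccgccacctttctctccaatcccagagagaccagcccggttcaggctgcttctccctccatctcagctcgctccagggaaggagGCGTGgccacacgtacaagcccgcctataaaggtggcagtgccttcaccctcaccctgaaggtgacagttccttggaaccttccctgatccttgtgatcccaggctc
TIPARP: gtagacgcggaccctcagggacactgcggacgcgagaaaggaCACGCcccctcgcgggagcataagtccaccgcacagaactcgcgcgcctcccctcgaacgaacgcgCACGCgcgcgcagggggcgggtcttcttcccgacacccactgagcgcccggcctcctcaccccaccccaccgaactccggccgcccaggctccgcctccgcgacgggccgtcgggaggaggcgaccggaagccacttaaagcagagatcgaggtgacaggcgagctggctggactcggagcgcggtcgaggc

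Among inflammatory genes 2 of 16 tested features rose and 4 fell (12.5% rising and 25% falling), beside the 12.8% and 17.0% of all features. CCL20_20881, a chemokine that attracts CCR6 cells, went from 11.5, 10.3 and 8.63 to 139.9, 151 and 287 CPM and rose by 4.24 (SE 0.36, adjusted p = 3.36e-07). IL1B_3325 had 2 counts at C1 and 51 at C5, a ratio of 36.2-fold (95% counting interval 9.53 to 307), and lost its call without batch 2. CRP_89694, the acute phase protein of liver, went from 278 to 1 counts, a ratio of 196-fold (95% counting interval 34.8 to 7754), and CXCL2_1672 from 299 to 6, a ratio of 35.1-fold (95% counting interval 15.9 to 96.3). SAA1_22122 and SAA2_33831, further acute phase proteins, changed by -0.28 and -0.44 and were not called. Of 14 tested interferon-stimulated features 2 rose and 4 fell (14.3% rising and 28.6% falling). IFI6_25609 went from 64.9, 63.9 and 61.9 to 161, 175 and 306 CPM and rose by 1.75 (SE 0.27, adjusted p = 9.52e-05). OAS3_87750, an antiviral 2-5A synthetase, went from 18.9, 29.00 and 40.8 to 7.24, 6.07 and 1.56 CPM (-2.53, SE 0.51, adjusted p = 0.00103, and -1.87 without batch 3), and IFIT3_3225 kept 3 of 71 counts, a ratio of 16.7-fold (95% counting interval 5.47 to 82.7). IFIT1_3219 changed by 0.83 (SE 0.28, adjusted p = 0.0315) with libraries that overlapped, and lost its call under 8 of 16 alternatives, among them those without batch 1 or batch 2 (edgeR adjusted p up to 0.388). The second OAS3 probe and IFIT3 lost their calls without batch 2, where 1 interferon-stimulated feature was called down in place of 4.

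**Figure D3:**
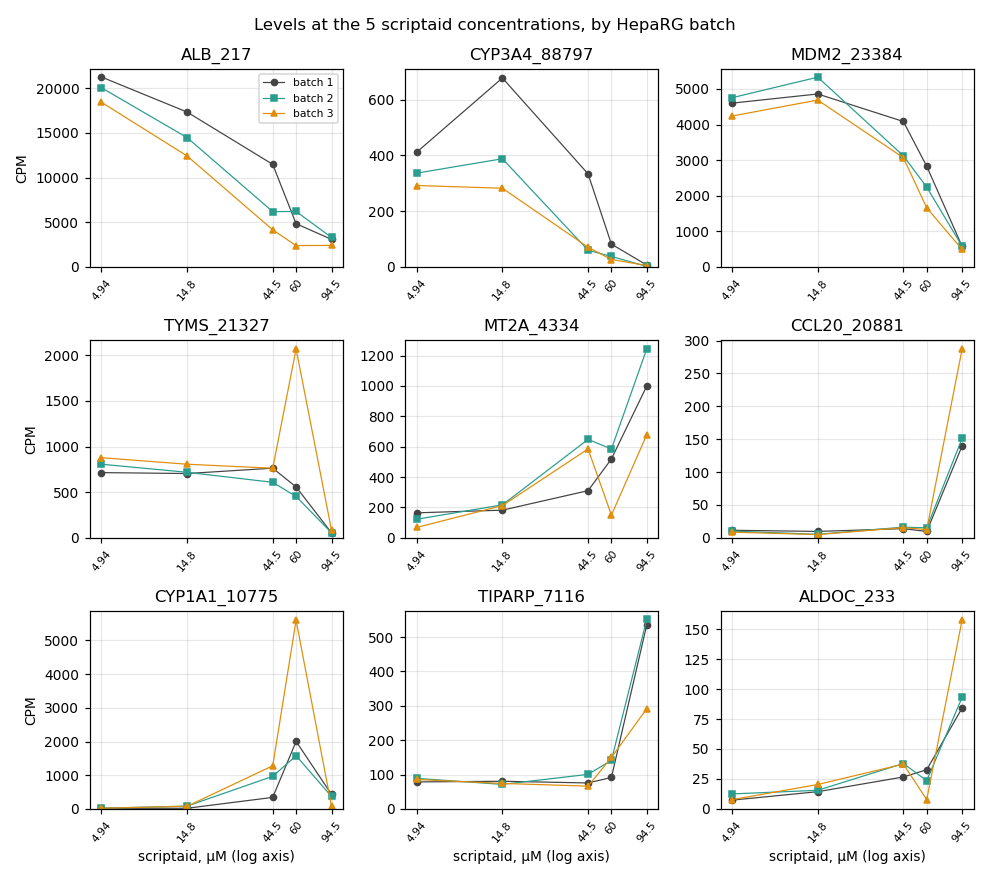
CPM of 9 probes at the 5 scriptaid concentrations (log axis), with a line for each HepaRG batch. ALB_217 was below its C1 value in each batch from C2 on, TIPARP_7116 and CCL20_20881 were high at C5, and CYP1A1_10775 was highest at C4 in each batch.

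The concentrations between the 2 ends showed when these genes moved. ALB_217 had 17349, 14484 and 12422 CPM at C2, 11479, 6176 and 4134 at C3 and 4821, 6200.4 and 2368 at C4, so it stood below its own C1 value in each batch from C2 on. CYP3A4_88797 had 678, 388 and 282 CPM at C2, 334, 59.2 and 70.1 at C3 and 81.1, 36.9 and 25.9 at C4, so it stayed above or near its C1 value at C2. MDM2_23384 had 2825, 2239 and 1656 CPM at C4, between its C1 and C5 values in each batch. TIPARP_7116 had 91.6, 141 and 149.7 CPM at C4, and CCL20_20881 9.67, 15.2 and 12.5 CPM, so most of the rise of both came between 60 and 94.5 µM. CYP1A1_10775 did not rise steadily. It had 21.02, 84.9 and 80.6 CPM at C2, 343, 968 and 1282 at C3 and 2004, 1579.9 and 5599 at C4, so the C4 value was above the C5 value in each batch. CYP1A1_1698 and CYP1B1_17315 were also higher at C4 than at C5 in each batch, at 225, 199 and 62.7 and 222, 365 and 87.8 CPM. The difference of C4 and C5 was not tested. The C4 library of batch 3, which stood apart, was also the one in which TYMS_21327 was highest (557, 453 and 2069 CPM) and MT2A_4334 lowest at C4 (519, 585 and 149.7 CPM).

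The same contrast was set against those of vorinostat and tacedinaline, which lay on plate E as well. Vorinostat is a hydroxamic acid like scriptaid, and tacedinaline is a benzamide. C1 and C5 were 0.405 and 23.5 µM for vorinostat and 1.14 and 44 µM for tacedinaline, so neither the concentrations nor their span match those of scriptaid and the differences hold for these ranges only. In a model of all 45 libraries of the plate with 13643 features tested, the C5 minus C1 change differed between scriptaid and vorinostat in 184 features (1.35%), 127 with the higher change in scriptaid and 57 with the lower. Against tacedinaline it differed in 216 (1.58%), 118 and 98. An unadjusted p under 0.05 was found in 1559 and 1623 features. These counts changed with the batch left out of all groups: without batches 1, 2 and 3 they were 25, 15 and 480 for vorinostat, and 41, 21 and 438 for tacedinaline. Without the C4 library of batch 3 they were 425 and 478. Both differences share the scriptaid libraries. In simulated data 3.03% of 2-fold differences from vorinostat passed the adjusted p, so a feature not called can still differ.

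CYP1A1_10775 was called against both chemicals. It went from 21.5 ± 0.647 to 290.2 ± 189 CPM in scriptaid (mean ± SD, n = 3 in each group), from 16.04 ± 4.85 to 13.04 ± 5.31 CPM in vorinostat and from 13.9 ± 0.649 to 17.5 ± 3.22 CPM in tacedinaline. The difference of the log2 changes was 3.96 (SE 0.74, adjusted p = 0.00114) against vorinostat and 3.44 (SE 0.72, adjusted p = 0.00364) against tacedinaline, and both calls were lost without batch 1 or batch 2 (adjusted p up to 0.13 and 0.315). Levels of vorinostat and tacedinaline between C1 and C5 are not given, so a rise at those concentrations is outside the comparison. No difference is given for the second CYP1A1 probe or for CYP1B1. TIPARP_7116 changed by 2.41 in scriptaid, 1.57 in vorinostat and 0.53 in tacedinaline. Its difference was 1.88 (SE 0.31, adjusted p = 0.00016) against tacedinaline and 0.85 (95% interval 0.24 to 1.45) against vorinostat, where the adjusted p was 0.211. DHRS2_15289 rose more in scriptaid than in vorinostat, where it went from 4.95 ± 3.63 to 47.7 ± 7.28 CPM, with a difference of 3.44 (SE 0.77, adjusted p = 0.00847) that was lost without batch 1 or batch 2. TEX37_22098, a testis gene, went from 81.5 ± 8.17 to 57.6 ± 13.9 CPM in scriptaid and from 84.6 ± 13.8 to 6.24 ± 2.18 CPM in vorinostat, a difference of 3.27 (SE 0.44, adjusted p = 7.1e-06). LCN2_87640, the iron-carrying lipocalin of the acute phase, went from 81.9 ± 21.99 to 138 ± 46.6 CPM in scriptaid and from 63.8 ± 10.1 to 742 ± 49.8 CPM in vorinostat, a difference of -2.78 (SE 0.39, adjusted p = 1e-05). TEX37 and LCN2 were called under all 9 alternatives. GTF3C6_92887, a subunit of TFIIIC, went from 84.2 ± 29.1 to 3.25 ± 0.884 CPM in scriptaid and from 61.1 ± 6.70 to 13.8 ± 7.05 CPM in vorinostat, a difference of -2.48 (SE 0.51, adjusted p = 0.00325). SUN3_19252, of the nuclear envelope of germ cells, went from 6.37 ± 1.82 to 29.6 ± 16.1 CPM in scriptaid and from 3.69 ± 1.19 to 81.7 ± 13.3 CPM in vorinostat, a difference of -2.196 (SE 0.57, adjusted p = 0.031). Both calls were lost without batch 1 or batch 2, and those of DHRS2 and SUN3 also with thinned counts.

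Against tacedinaline, CA9_14814, the carbonic anhydrase of hypoxic cells, went from 32.8 ± 3.35 to 35.5 ± 19.2 CPM in scriptaid and from 56.9 ± 10.5 to 2.57 ± 0.996 CPM in tacedinaline, a difference of 4.60 (SE 0.68, adjusted p = 2.03e-05). ALDOC_233 went from 9.33 ± 2.97 to 110.3 ± 38.9 CPM in scriptaid and from 14.7 ± 6.51 to 16.2 ± 11.96 CPM in tacedinaline, a difference of 3.39 (SE 0.60, adjusted p = 0.000465) that was lost without batch 1 (adjusted p = 0.0645). CA9 was thus lowest at C5 of tacedinaline, and ALDOC highest at C5 of scriptaid. MMP3_4216, a matrix metalloproteinase, went from 22.1 ± 6.60 to 9.97 ± 2.91 CPM in scriptaid and from 11.02 ± 5.29 to 138 ± 16.7 CPM in tacedinaline, a difference of -4.70 (SE 0.56, adjusted p = 1.88e-07). SBSN_13897 (suprabasin, of keratinised epithelia) went from 12.4 ± 3.05 to 24.7 ± 12.8 CPM in scriptaid and from 14.7 ± 4.38 to 406 ± 108 CPM in tacedinaline, a difference of -3.87 (SE 0.57, adjusted p = 1.91e-05). PI3_33469 (elafin, an elastase inhibitor) went from 3.36 ± 1.41 to 5.18 ± 0.606 CPM in scriptaid and from 2.87 ± 1.29 to 66.9 ± 20.2 CPM in tacedinaline, a difference of -3.81 (SE 0.83, adjusted p = 0.00569). The call of PI3 was lost without batch 1 or batch 2, whereas CA9, MMP3 and SBSN were called under all 9 alternatives.

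For most of the genes examined across the chemicals no difference was called, and the intervals give the differences that the data allow. For ALB_217 the difference was 0.27 (95% interval -0.48 to 1.02) against vorinostat and 1.48 (SE 0.38, adjusted p = 0.0302) against tacedinaline, in which albumin went from 24190 to 1236 CPM. For BAAT_614 it was -0.28 (95% interval -1.34 to 0.77) and -0.46 (95% interval -1.49 to 0.58), and for CYP3A4_88797 -1.22 (95% interval -3.24 to 0.80) and 1.01 (95% interval -1.0 to 3.02). The intervals of CYP3A4 reach beyond 2 on the log2 scale on at least 1 side. MDM2_23384 had differences of 0.23 (95% interval -0.23 to 0.70) and -0.004376 (95% interval -0.46 to 0.45), and HDAC3_22727 of 0.03 (95% interval -0.65 to 0.71) and 0.13 (95% interval -0.54 to 0.81). MT2A_4334 went from 100.2 to 2138 CPM in vorinostat, a difference of -1.41 (95% interval -2.27 to -0.55) with an adjusted p of 0.103.

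**Figure D4:**
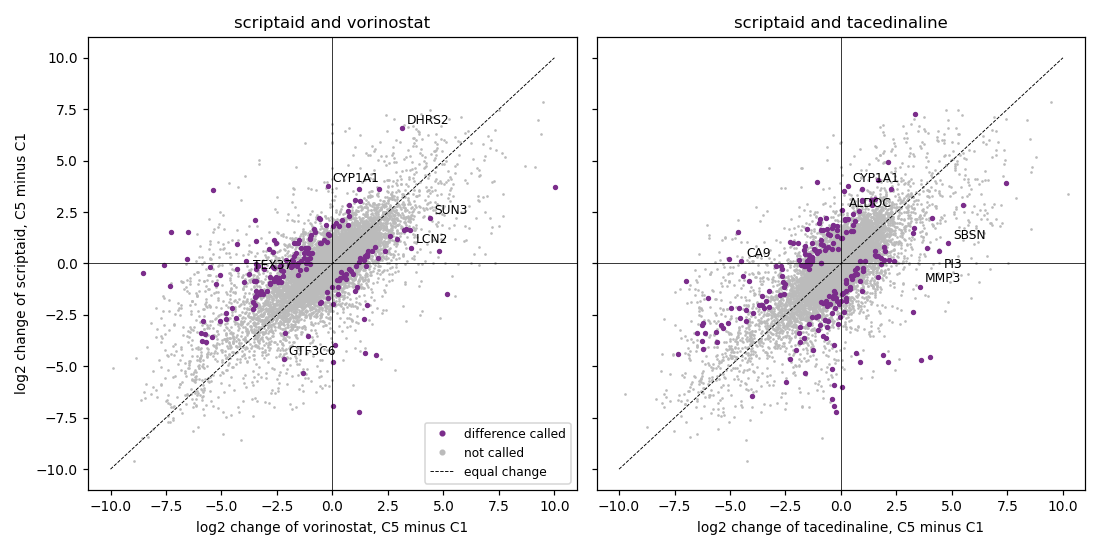
Fitted log2 change, C5 minus C1, of scriptaid against that of vorinostat (left) and tacedinaline (right) for 13643 features, with called differences in purple (184 and 216), the named ones labelled by gene, and the dashed line at equal change. CYP1A1 lies near 0 on both horizontal axes and at 3.75 on the vertical one. The axes share the scriptaid values.

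The promoters of rising and falling genes were also read for their composition. RefSeq promoters of GRCh38.p14 were found for 9444 of 11498 tested genes, and 9440 windows of 300 bases were read. The GC content had a median of 65.3% in 1239 rising genes, 62.7% in 1619 falling genes and 64.7% in all, and the lower quartiles were 59.0%, 52.2% and 57.7%. TATAAA, on either strand, was found in 9.6% of falling, 6.7% of rising and 6.2% of all promoters. The GC box GGGCGG was found in 57.3% of falling, 72.2% of rising and 67.8% of all promoters, and CCAAT in 33.1%, 41.7% and 37.5%. GCGTG was in 40.5% of falling, 55.4% of rising and 50.0% of all promoters. The metal response letters differed between their forms: TGCGCNC was in 23.9% of falling, 32.7% of rising and 30.2% of all promoters, and TGCACNC in 12.3%, 11.1% and 11.3%. The core GCGTG can overlap the metal response letters, as in GCGTGCA. Since the base composition differs between the sets, these shares describe the windows, and no test was made.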

How the data were processed

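The authors deposited raw counts per detector probe, as whole numbers with no normalisation, in 1 table. The submitters' processing notes name bcl2fastq 2.20.422, fastp 0.23.2, STAR 2.7.10b and DESeq2 1.38.0. Probe coordinates and the genome build are not given in the sources used here, and probes of near-identical genes (metallothioneins, tubulins, CYP3A) may share reads. Of 22069 rows, 1 lacked values in 88 libraries and was left out. The 15 scriptaid libraries (1785844 to 4181109 counts) were fitted in R 4.3.3 with edgeR 4.0.16 (filterByExpr, TMM, quasi-likelihood F test, no batch term, Benjamini-Hochberg adjustment over all features tested). CPM are counts per 1000000 of the TMM-scaled library and compare libraries, not probes. Features with 3 counts or fewer in each of a group's libraries were said to be at the floor. Folds against 0 counts are bounds at 3 counts per library. Those against few counts carry exact 95% intervals of the pooled counts, which leave out the spread between batches. Differences between chemicals carry 95% normal intervals from the SE. The scripts were tested on simulated data, in which few features changed. An adjusted p under 0.05 was reached by 4.62% of 2-fold and 54% of 4-fold changes at C5 against C1. For the difference between scriptaid and vorinostat the shares were 3.03% and 52.3%.

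Named genes were the 8 rising and 8 falling features with the largest change (at least 50 CPM in the higher group, same direction in 3 batches, not at the floor), the 4 at the floor each way with the largest bound, up to 4 called members and the 2 of highest CPM in each list, all deacetylases, and 3 features each way for each difference between chemicals. A few of the features so named are not reported here. Any further gene was picked with its values in view. The comparison, lists and rules were chosen with earlier results of these data known. The replicate numbers mark HepaRG batches per the series' design text, so they pair the samples, and deviations from group means correlated at 0.0139 to 0.0538 between C1 and C5 of a batch. Alternatives were RLE scaling, no filter, DESeq2 1.42.0, a batch block, batches or libraries left out, thinned counts, C1 and C5 alone, probes summed to genes and, added after its values were seen, the omission of the C4 library of batch 3.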

Additional observations from a re-analysis of the deposited data

Results flagged for a closer look

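The change from C1 to C5 differed between scriptaid and another chemical of its plate in a test of the difference itself, for 184 features against vorinostat and 216 against tacedinaline (edgeR, adjusted p under 0.05). Against vorinostat the largest differences in favour of scriptaid were those of CYP1A1_10775 (3.96 on the log2 scale), DHRS2_15289 (3.44) and TEX37_22098 (3.27). LCN2_87640 (-2.78), GTF3C6_92887 (-2.48) and SUN3_19252 (-2.196) had the largest in the other direction. Against tacedinaline these were CA9_14814 (4.60), CYP1A1_10775 (3.44) and ALDOC_233 (3.39), and MMP3_4216 (-4.70), SBSN_13897 (-3.87) and PI3_33469 (-3.81). They are the largest among called features with at least 50 CPM in 1 of the 4 groups. TEX37, LCN2, CA9, MMP3 and SBSN were called under all 9 alternatives. The others lost their call without batch 1, and all of them but ALDOC also without batch 2. Without batch 2 the counts of features were 15 against vorinostat and 21 against tacedinaline.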

How the results depend on the processing

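The count of features called at C5 against C1 stayed within 1.5 times of 3811 under RLE scaling (3811, of which 3753 were the same), no filter (3948), DESeq2 (4343), the batch as a block (3984, of which 3729 were the same), thinning (3609), probes summed to genes (3631), C1 and C5 alone (5064) and single C1 or C5 libraries left out (2835 to 3210). It ranged from 1516 to 5447 over all runs that left out a batch or a library. The share of rising calls was 42.8%, and it was 36.8% with no filter, 29.2% without batch 2 and 47.6% with C1 and C5 alone. The paired model with the batch as a block changed the call of 0 of 171 named features and gave 229 and 258 differences from vorinostat and tacedinaline in place of 184 and 216. DESeq2 gave 298 and 359. Runs that left out a batch or the C4 library of batch 3 gave 15 to 480 and 21 to 478. Of the 171 named features, 141 were called, 96 were also called under every one of the 16 alternatives that gave a value, and 0 changed direction while called. Without batch 2, 44 lost their call. The cause of these losses was not tested. The number of libraries and the lower totals at C5 limit what low features can show. List medians near 0 (lipid handling, cholesterol, biliary, deacetylases, histones, CDK inhibitors, BCL2, heat shock) changed sign under some alternatives.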

Other observations

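Features were also grouped by the letters that begin their gene symbols, for the 86 stems with at least 15 tested features, and the stems described here were chosen after their counts were seen, so their counts are descriptions, to be read beside the 12.8% of all features that rose and the 17.0% that fell. The stem CASP holds the caspases, the proteases of apoptosis and inflammation, and CASP8AP2_26092, a protein bound to a caspase, which was not called. Of its 15 features 8 fell and 0 rose (53.3% and 0%). The inflammatory caspases fell most. CASP4_22663 went from 161, 144.8 and 93.2 to 8.15, 19.4 and 8.33 CPM (-3.43, SE 0.36, adjusted p = 2.18e-06), and CASP1_15797 from 68.7, 55.1 and 73.5 to 9.05, 5.76 and 4.16 CPM (-3.37, SE 0.35, adjusted p = 1.64e-06), with the other 2 CASP1 probes at -2.59 and -3.59. CASP6_24079, an executioner caspase, fell from 165, 149 and 142 to 43.4, 47.02 and 38.5 CPM (-1.82, SE 0.29, adjusted p = 0.000138). CASP9_992, of the mitochondrial pathway, had a change of 0.91 (adjusted p = 0.0667).

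Intraflagellar transport genes, whose products carry cargo along the cilium, held 6 rising and 0 falling features of 17 (35.3% rising). IFT52_16512 went from 92.7, 121 and 127 to 291, 312 and 258 CPM (1.33, SE 0.36, adjusted p = 0.00837), and IFT80_11002 from 371, 414 and 439 to 667, 727 and 741 CPM (0.80, SE 0.22, adjusted p = 0.0112). Among tetraspanins 6 of 16 rose (37.5%) and 0 fell, with TSPAN13_25005 going from 1.28, 3.44 and 2.98 to 27.2, 30.9 and 13.01 CPM (3.18, SE 0.54, adjusted p = 0.000247). The stem UGT, of UDP-glucuronosyltransferases, the enzymes that conjugate drugs and bilirubin, and UGT8_23757, a galactosyltransferase that was not called, held 13 falling and 1 rising of 18 (72.2% and 5.56%), and cytochromes P450 30 falling and 5 rising of 50 (60% and 10%). Histone cluster genes (stem HIST), most of which are expressed in S phase, held 14 falling and 3 rising of 42 (33.3% and 7.14%), with a median of -0.58.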
